A study of Homo sapiens with 4 samples.

Results

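This section describes 33 genes of the endoplasmic reticulum (ER) in H1944, a human lung cancer cell line, after exposure to BAY1217389, an inhibitor of the mitotic kinase MPS1 (TTK). The genes encode the sensors of ER stress, the machinery that disposes of misfolded proteins, the enzymes of protein folding and disulfide formation, the channel through which proteins enter the ER, and part of the coat of the vesicles in which they leave. They were chosen by symbol among the 46427 gene rows of the count tables, and all 33 were found. The choice was made with earlier results of these data known. Cells of the NCI-H1944 line were kept in either the vehicle DMSO or BAY1217389 for 48 h, the medium was then exchanged, and total RNA was taken 24 h later. Each group had 2 biological replicates, and no dose is given in the labels. The labels name no genetic change, and both groups had the same washout. According to its design text, the experiment was aimed at genes that restrain STING signalling. The labels do not say what separates the replicates beyond calling them biological. The p-values thus rest on the spread between these libraries, which the fit pools in large part across all genes (2 residual and 31.1 prior degrees of freedom).

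Misfolded proteins in the ER lumen are sensed by 3 membrane proteins, IRE1 (encoded by ERN1), PERK (EIF2AK3) and ATF6. IRE1 splices the mRNA of the transcription factor XBP1, PERK phosphorylates the translation factor eIF2 alpha, and ATF6 is cut in the Golgi to release a transcription factor. XBP1 and ATF6 then raise transcription of chaperones, of oxidoreductases and of genes for ER-associated degradation (ERAD), in which misfolded proteins are drawn back into the cytosol and handed to the proteasome. The first steps of these pathways act on proteins or by splicing, and gene-level counts do not separate spliced from unspliced XBP1 mRNA.

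The DMSO libraries held 39332931 and 38904473 reads and the BAY1217389 libraries 43661342 and 43067647. Reads of the 33 genes made up 0.518 and 0.516% of the DMSO totals and 0.530 and 0.529% of the BAY1217389 totals. CPM, a gene's counts scaled to library size, is the measure of level, and errors are the SD of the 2 replicates. Of 6 epithelial markers, KRT8, KRT18, KRT7, CDH1 and EPCAM had reads in every library and KRT19 had 0 in all 4, with a summed level of 4125 and 4133 CPM in DMSO and 4790 and 4949 CPM after BAY1217389. Leukocyte, endothelial and fibroblast markers summed to 70.9 and 73.7, 0.787 and 0.792, and 33.4 and 29.7 CPM in DMSO, and to 163 and 167, 1.93 and 1.92, and 46.3 and 45.8 CPM after BAY1217389. The leukocyte sum was nearly all CD68, while the pan-leukocyte gene PTPRC had 0 reads in all 4 libraries. The part of these markers in the results was not tested.

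Changes in the ER genes were small. Of the 33 genes, 32 passed the filter on low counts, and of these 9 were higher after BAY1217389, 4 were lower and 19 did not pass the threshold (edgeR quasi-likelihood test, Benjamini-Hochberg adjusted p under 0.05). That is 28.1% higher and 12.5% lower, beside 14.5% higher and 13.3% lower among all 16738 genes tested. In bulk RNA, fewer expressing cells and less RNA per cell cannot be told apart. Log2 fold changes ran from -0.25 for ERO1B to 0.32 for SEC24D, with a median of 0.08 (all genes 0.00). Tested against a fold change of 1.2 in place of no change, 0 of the 32 passed in either direction, while 5.32% of all genes were higher and 1.81% lower by that test. By the test against no change with unadjusted p under 0.05, 17 of the 32 passed, beside 37% of all genes tested.

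The ER genes are abundant, and their errors were narrower than those over all genes. The part of level in this was not tested. Of the 32, 31 lay at or above the median DMSO level of all tested genes (15.3 CPM), and the median standard error of the log2 fold change was 0.05 for them and 0.09 for all genes. Among genes at or above that level, 17.5% were higher and 22.6% lower, and among the 31 members there, 8 were higher and 4 lower. The 2 BAY1217389 libraries lay both above or both below the 2 DMSO libraries for 26 of the 32 genes, and this held for 61% of all genes. The plot of levels by library shows how close the 4 libraries are for most genes.

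**Figure D1:**
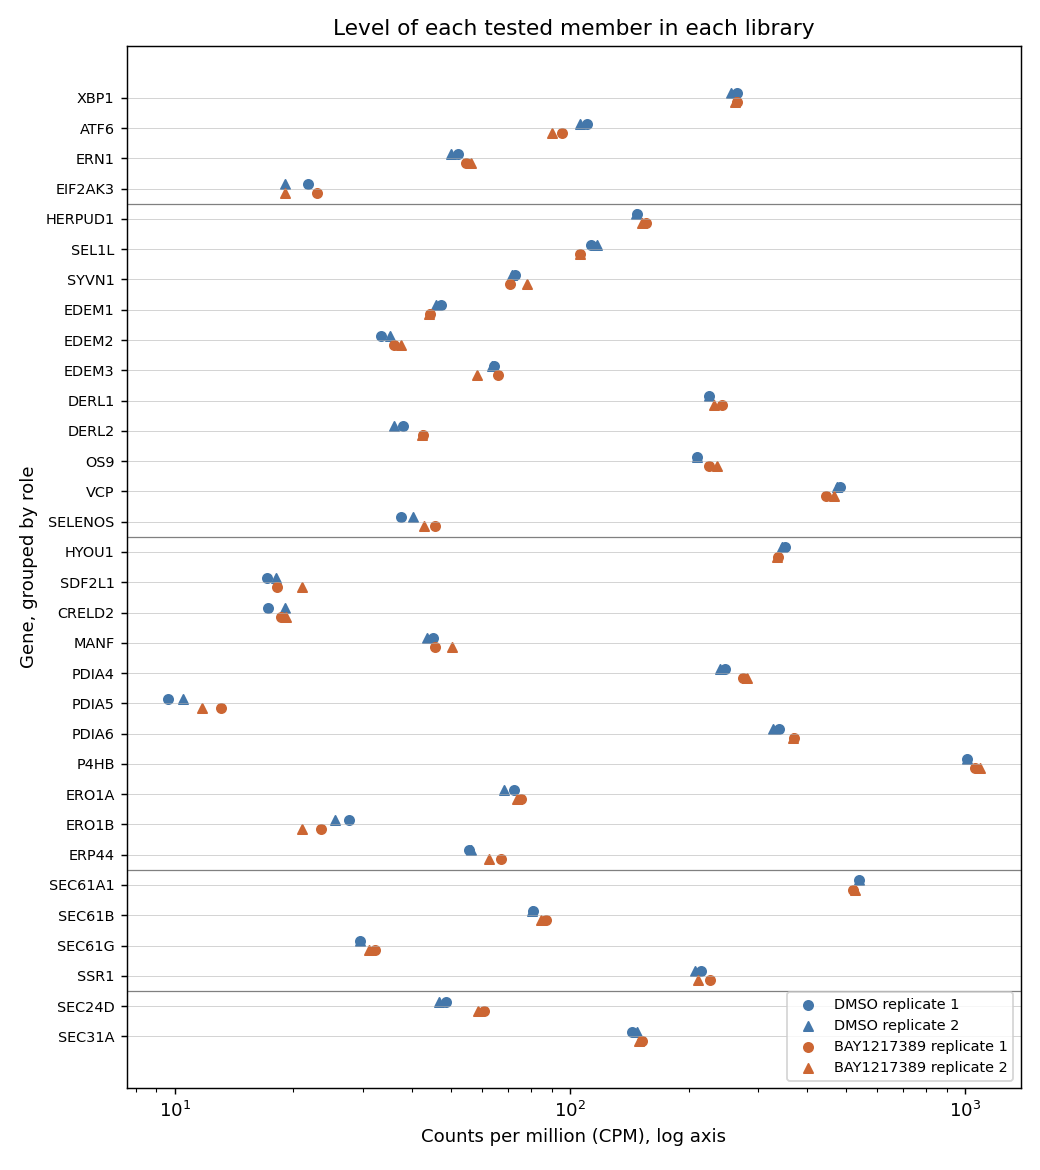
Level of each of the 32 tested genes in each of the 4 libraries, in CPM on a log axis, grouped by role from sensors (top) to the vesicle coat (bottom). P4HB is highest at 1013 to 1093 CPM and PDIA5 lowest at 9.62 to 13.1 CPM, and the 2 groups lie close together in every row.

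Corrected for length, the genes spanned a wide range of levels. Exonic length was taken as the union of exons of GENCODE 29 basic transcripts, so these values depend on that annotation and on the one behind the counts. P4HB, a protein disulfide isomerase, was highest with 389 ± 0.366 CPM per kb in DMSO. SEC61A1, which encodes the pore of the translocation channel, followed with 136 ± 0.0132 CPM per kb, then XBP1 with 128 ± 2.77, the channel subunit gene SEC61B with 123 ± 0.419 and VCP with 110 ± 1.26. SEC61B and XBP1 exchanged places after BAY1217389, with 132 ± 2.77 and 129 ± 0.911 CPM per kb, a gap within the spread of their libraries, and SEC61A1 stood at 132 ± 1.05. The kinase genes EIF2AK3 and ERN1 were the lowest of the genes with reads, at 4.22 ± 0.395 and 5.21 ± 0.152 CPM per kb in DMSO. DERL3, a paralog of DERL1 and DERL2 known for expression in secretory tissues, had 0 reads in all 4 libraries, which allows up to 3 reads, that is 0.0766 CPM in the shallowest library. The annotation used for counting is uncertain, and a gene at 0 reads is given as listed at 0.

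Promoters of some of these genes hold the elements through which ATF6 and XBP1 are known to act, and these are shown so that the values of their genes can be read beside them. The 250 bases before each start were read from RefSeq promoter sequences (GRCh38.p14), which hold 30 of the 33 genes. The ER stress response element (ERSE) is CCAAT, 9 bases and CCACG, and it was found on either strand in 4 of the 30 (13.3%) and in 25 of all 27305 genes (0.0916%). ERSE-II, which is ATTGG, 1 base and CCACG, was found in 3 of the 30 (10.0%) and in 18 genes overall (0.0659%). Both elements were first described in genes of this kind, so their presence is background. In the windows, written 5′ to 3′ on the strand of the gene, capitals mark the element with the bases between its parts, and a CGTGG start shows an element on the other strand.
XBP1: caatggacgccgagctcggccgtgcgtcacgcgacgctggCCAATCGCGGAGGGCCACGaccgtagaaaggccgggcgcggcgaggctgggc
PDIA6: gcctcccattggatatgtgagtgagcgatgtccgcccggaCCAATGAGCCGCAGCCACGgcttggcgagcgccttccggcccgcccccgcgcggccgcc
CRELD2: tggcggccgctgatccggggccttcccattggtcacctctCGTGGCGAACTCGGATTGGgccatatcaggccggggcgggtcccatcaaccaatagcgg
ERO1B: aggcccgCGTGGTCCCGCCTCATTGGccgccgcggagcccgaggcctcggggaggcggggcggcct
HERPUD1: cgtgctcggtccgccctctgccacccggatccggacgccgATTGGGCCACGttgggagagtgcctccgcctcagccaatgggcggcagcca
SDF2L1: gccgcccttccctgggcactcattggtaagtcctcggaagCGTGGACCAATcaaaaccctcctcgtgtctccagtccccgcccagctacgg
HYOU1 (nearer element): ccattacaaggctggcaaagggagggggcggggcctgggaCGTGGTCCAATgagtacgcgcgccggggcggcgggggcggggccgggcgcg
HYOU1 (farther element): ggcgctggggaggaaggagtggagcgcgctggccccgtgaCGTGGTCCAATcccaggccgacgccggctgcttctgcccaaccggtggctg

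The ERSE windows lie at chr22:28800570-28800661 (XBP1, minus strand), chr2:10812813-10812911 (PDIA6, minus strand), chr22:49918514-49918612 (CRELD2, plus strand) and chr1:236282143-236282208 (ERO1B, minus strand). The ERSE-II windows lie at chr16:56931985-56932075 (HERPUD1, plus strand), chr22:21642074-21642164 (SDF2L1, plus strand), chr11:119057234-119057324 and chr11:119057340-119057430 (HYOU1, minus strand). Counted from the start, the element of XBP1 began at -52, that of PDIA6 at -86, that of CRELD2 at -80 and that of ERO1B at -243. HYOU1 was the member with 2 ERSE-II matches, which began at -185 and -79. The UPRE, an XBP1 site with the letters TGACGTGG, was found in HYOU1, where it overlaps the farther ERSE-II, in VCP, and in 213 of all genes (0.780%). The amino acid response element TGATGCAAT and the interferon-stimulated response element (GAAA, 2 bases, GAAA) matched 0 of the 30, and they matched 0.271% and 3.71% of all genes.

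Of the 7 genes with ERSE or ERSE-II, PDIA6 was higher and ERO1B was lower. XBP1, CRELD2, HERPUD1, SDF2L1 and HYOU1 did not pass. Over all tested genes, 14.5% were higher and 13.3% lower, and 1 of 7 in each direction lies near those shares. Of all 17 tested genes with an ERSE, 7 were higher and 2 lower, 8 missed the threshold, and the log2 fold change had a median of 0.08. Among the 13 of these outside the 33 genes were the chaperone genes HSPA5, which encodes BiP (log2 fold change 0.08, SE 0.02), HSP90B1, which encodes GRP94 (0.09, SE 0.02), and CALR, which encodes calreticulin (0.35, SE 0.03), all higher, and CANX, which encodes calnexin (-0.02, SE 0.02), which did not pass. EIF2A, which encodes an initiation factor other than eIF2 alpha, was the lower gene of the 13 (-0.24, SE 0.04). TRIM5, an antiviral gene, had an ERSE match as well and rose by 2.06 on the log2 scale (SE 0.06). Of 14 tested genes with an ERSE-II, 2 were higher and 1 lower, 11 missed the threshold, and the median was 0.06.

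Among the sensors, ATF6 fell and the other 3 genes of the group did not pass. ATF6 stood at 111 and 106 CPM in DMSO and at 95.4 and 90.3 CPM after BAY1217389 (log2 fold change -0.23, SE 0.04, edgeR adjusted p = 3.86e-05). Both BAY1217389 libraries lay below both DMSO libraries. ERN1, the gene of IRE1, had 52.1 and 50.0 CPM against 54.6 and 56.4 CPM (log2 fold change 0.12, SE 0.05, edgeR adjusted p = 0.0725). Its groups did not overlap either, with BAY1217389 higher, and it passed when genes needed at least 5 CPM in 2 libraries, the stricter filter (edgeR adjusted p = 0.0272, range over all alternatives 0.0272 to 1). EIF2AK3, the gene of PERK, had 21.8 and 19.1 CPM against 22.9 and 19.1 CPM, with overlapping groups and a 95% interval of the log2 fold change from -0.14 to 0.23. XBP1 had 265 and 257 CPM against 265 and 263 CPM, and its interval ran from -0.04 to 0.08.

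Of the 12 genes of disposal, 11 were tested. Of these, 3 were higher (27.3%) and 2 lower (18.2%), 6 missed the threshold, and the median log2 fold change was 0.06. Over all tested genes, 14.5% were higher and 13.3% lower. Among those at or above the median DMSO level the shares were 17.5% and 22.6%. DERL2, a membrane protein of the ERAD channel, went from 37.8 and 35.9 CPM to 42.4 and 42.3 CPM (log2 fold change 0.20, SE 0.06, edgeR adjusted p = 0.00712). SELENOS, a selenoprotein that ties VCP to the ER membrane, went from 37.4 and 40.1 CPM to 45.7 and 42.9 CPM (0.19, SE 0.06, edgeR adjusted p = 0.0107). OS9, a lectin that delivers misfolded glycoproteins to the ubiquitin ligase, went from 209.8 and 210.4 CPM to 226 and 236 CPM (0.14, SE 0.03, edgeR adjusted p = 0.00164). In each of the 3 genes both BAY1217389 libraries were above both DMSO libraries.

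SEL1L and VCP were the lower disposal genes. SEL1L, the adaptor of the ERAD ligase, went from 113 and 117 CPM to 107 and 106 CPM (log2 fold change -0.12, SE 0.04, edgeR adjusted p = 0.0189). VCP, the ATPase that pulls proteins from the membrane, went from 484 and 476 CPM to 447 and 466 CPM (-0.07, SE 0.03, edgeR adjusted p = 0.0454). Groups did not overlap in either gene. HERPUD1, an ER membrane protein of the ligase complex, had 148 and 147 CPM against 156 and 152 CPM and did not pass (0.06, SE 0.04, edgeR adjusted p = 0.212). The ligase gene SYVN1 (0.04), the mannose-trimming genes EDEM1 (-0.08), EDEM2 (0.10) and EDEM3 (-0.04), and DERL1 (0.08) did not pass either. DERL1 passed under the stricter filter (edgeR adjusted p = 0.0155) and when BAY1217389 replicate 2 was left out (0.0193), its range being 0.0155 to 1.

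4 of the 5 disposal calls rest on few libraries or on the tool. DERL2 no longer passed when DMSO replicate 2 was left out (log2 fold change 0.16, edgeR adjusted p = 0.117) and with DESeq2 (adjusted p = 0.0541). SELENOS no longer passed when DMSO replicate 1 was left out (0.14, edgeR adjusted p = 0.173), without BAY1217389 replicate 1 (0.14, 0.161) and with DESeq2 (0.0768). SEL1L no longer passed when DMSO replicate 2 was left out (-0.09, edgeR adjusted p = 0.231), without BAY1217389 replicate 2 (-0.11, 0.0658) and with DESeq2 (0.0845). VCP no longer passed without DMSO replicate 1 (-0.06, edgeR adjusted p = 0.308), without DMSO replicate 2 (-0.09, 0.120), without BAY1217389 replicate 1 (-0.05, 0.244), without the low-count filter (0.113), with the stricter filter (0.0961) and with DESeq2 (0.0732). Ranges of adjusted p over the 11 alternatives that test against no change were 0.0012 to 0.117 for DERL2, 0.00155 to 0.173 for SELENOS, 0.0102 to 0.231 for SEL1L and 0.0106 to 0.308 for VCP. Signs held in all of them.

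**Figure D2:**
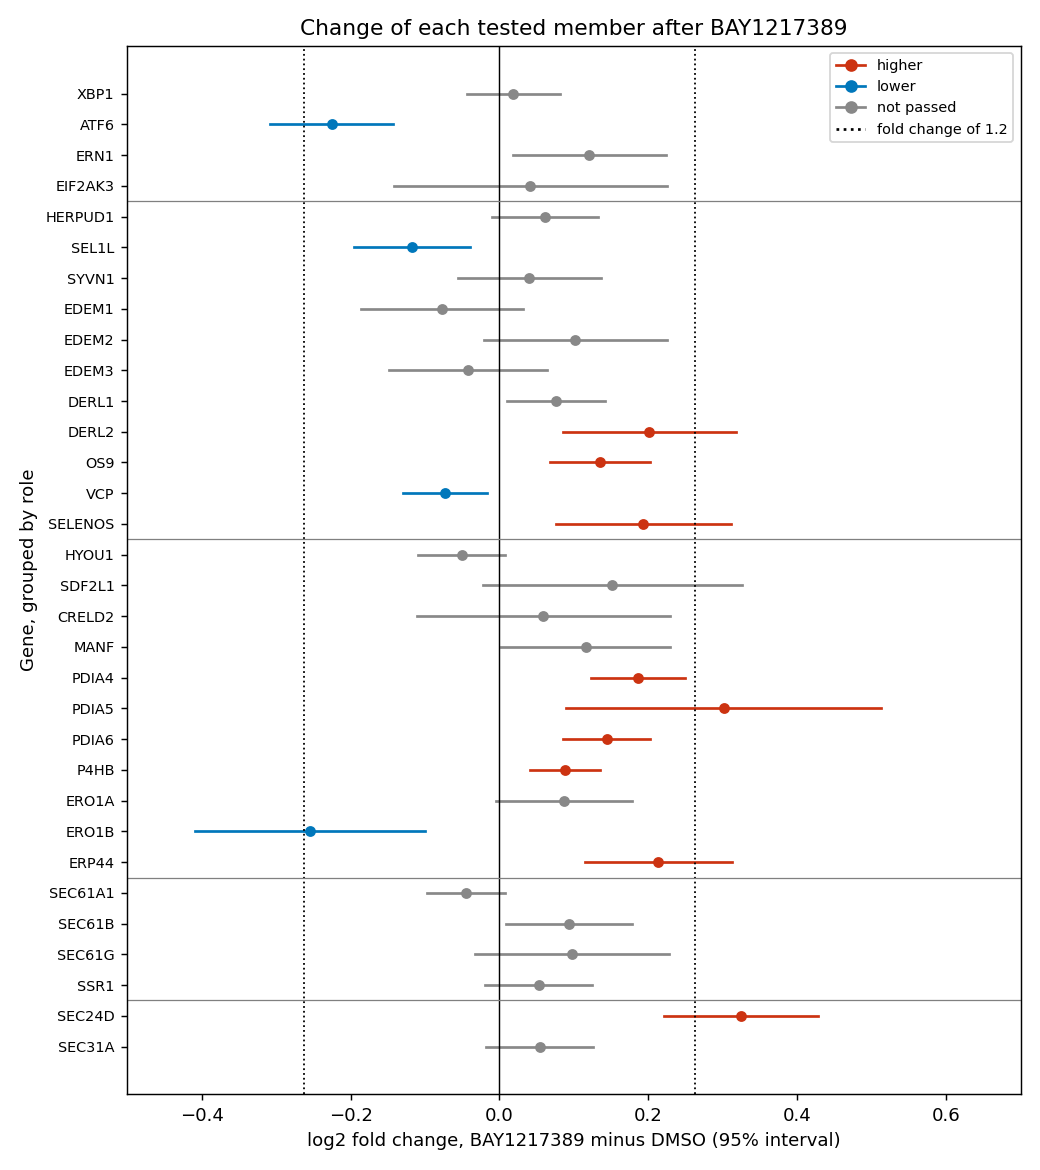
Log2 fold change (BAY1217389 minus DMSO) of each of the 32 tested genes with its 95% interval from the edgeR fit, grouped by role, with a fold change of 1.2 as dotted lines. The 9 higher and 4 lower genes lie between -0.25 and 0.32, and most intervals stay within the dotted lines.

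Folding and oxidation genes held most of the rises. Of 11 genes, 5 were higher (45.5%) and 1 lower (9.09%), 5 missed the threshold, and the median log2 fold change was 0.12. Over all tested genes, 14.5% were higher and 13.3% lower. Among those at or above the median DMSO level the shares were 17.5% and 22.6%. The 4 protein disulfide isomerases of the list, which form and rearrange disulfide bonds, were all higher. PDIA4 had 247 and 241 CPM in DMSO and 275 and 281 CPM after BAY1217389 (log2 fold change 0.19, SE 0.03, edgeR adjusted p = 1.18e-05). PDIA6 had 339 and 327 CPM against 370.0 and 367 CPM (0.14, SE 0.03, edgeR adjusted p = 1.87e-04). P4HB, which is also a subunit of collagen prolyl hydroxylase, had 1013 and 1014 CPM against 1061 and 1093 CPM (0.09, SE 0.02, edgeR adjusted p = 0.00347). In these 3 abundant genes the groups did not overlap and the change was 6.31 to 13.8%. PDIA5 was the least abundant, with 9.62 and 10.5 CPM against 13.1 and 11.7 CPM (0.30, SE 0.10, edgeR adjusted p = 0.0275). Its 95% interval, from 0.09 to 0.51, was the widest of the 32.

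The remaining oxidation genes moved unequally. ERP44, which retains ERO1 enzymes and unassembled proteins in the early secretory pathway, had 55.5 and 56.4 CPM against 67.0 and 62.7 CPM (log2 fold change 0.21, SE 0.05, edgeR adjusted p = 8.62e-04). ERO1A and ERO1B are the oxidases that recharge the disulfide isomerases. ERO1B fell from 27.6 and 25.5 CPM to 23.5 and 21.0 CPM (-0.25, SE 0.08, edgeR adjusted p = 0.0102), with no overlap. ERO1A had 72.2 and 68.1 CPM against 75.3 and 73.6 CPM and did not pass (0.09, SE 0.05, edgeR adjusted p = 0.160). The folding genes HYOU1 (-0.05), SDF2L1 (0.15), CRELD2 (0.06) and MANF (0.12), all known to be induced by ER stress, did not pass. The 95% interval for HYOU1, the most abundant of these, ran from -0.11 to 0.01, and that for SDF2L1 from -0.02 to 0.33. MANF passed without BAY1217389 replicate 1 (edgeR adjusted p = 0.0458) and under the stricter filter (0.0470), its range being 0.0458 to 1.

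Of the 6 calls in this group, those of PDIA4, PDIA6 and ERP44 held in all 11 alternatives against no change. PDIA5 no longer passed when DMSO replicate 1 was left out (log2 fold change 0.24, edgeR adjusted p = 0.203), without BAY1217389 replicate 1 (0.22, 0.273) and with DESeq2 (0.166), within a range of 0.0102 to 0.273. P4HB no longer passed when DMSO replicate 1 was left out (0.09, edgeR adjusted p = 0.0864) and without DMSO replicate 2 (0.09, 0.0823), within a range of 4.19e-05 to 0.0864. ERO1B no longer passed when DMSO replicate 1 was left out (-0.20, edgeR adjusted p = 0.130), without BAY1217389 replicate 2 (-0.17, 0.181) and with DESeq2 (0.0783), within a range of 0.00593 to 0.181. The plot of alternatives shows that no sign turned among the 13 called genes.

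**Figure D3:**
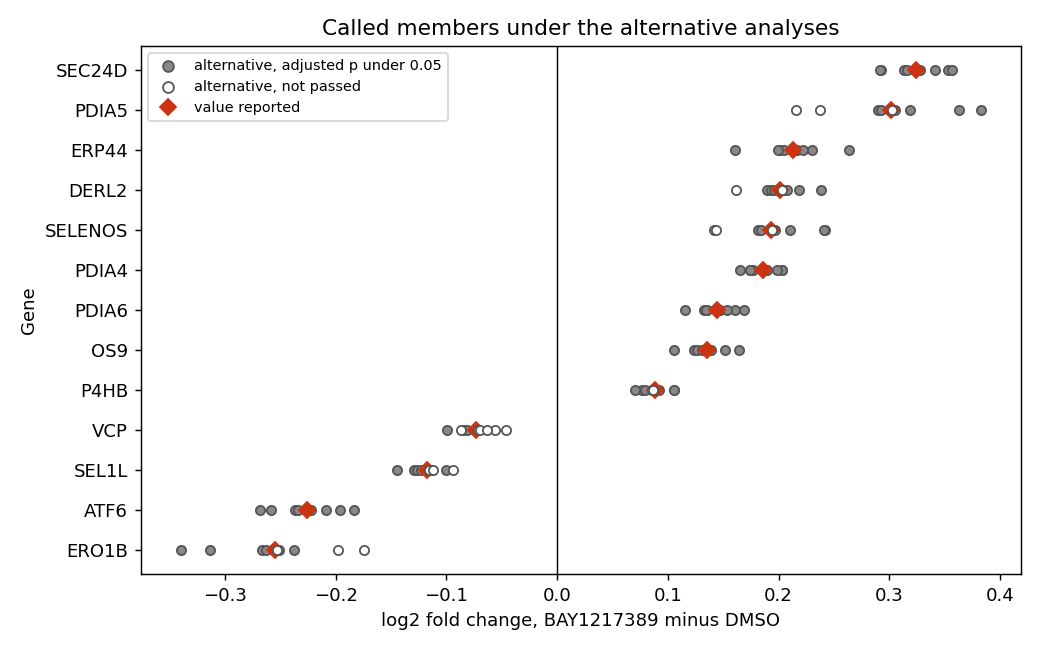
Log2 fold change of the 13 called genes as reported (diamonds) and under 11 alternatives that test against no change (circles, open where the adjusted p was not under 0.05). Every value stays on its side of 0, and open circles appear for PDIA5, DERL2, SELENOS, P4HB, VCP, SEL1L and ERO1B.

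None of the 4 translocation genes passed. SEC61A1, the pore, had 542 and 542 CPM in DMSO and 522 and 528 CPM after BAY1217389 (log2 fold change -0.04, SE 0.03, edgeR adjusted p = 0.219). SEC61B had 80.8 and 80.5 CPM against 87.3 and 84.8 CPM (0.09, SE 0.04, edgeR adjusted p = 0.0960), and SEC61G 29.5 and 29.5 CPM against 32.1 and 31.1 CPM (0.10, SE 0.06, edgeR adjusted p = 0.286). The 2 small subunits were thus above DMSO in both libraries and the pore below it in both, and the 95% intervals reached down to -0.10 for SEC61A1 and up to 0.18 and 0.23 for SEC61B and SEC61G. SSR1, a subunit of the TRAP complex beside the channel, had 214 and 208 CPM against 227 and 211 CPM (0.05, SE 0.04, edgeR adjusted p = 0.300). SEC61B passed with the stricter filter (edgeR adjusted p = 0.0334, range 0.0334 to 1) and SSR1 without BAY1217389 replicate 2 (edgeR adjusted p = 0.0310, range 0.0310 to 1). By unadjusted p under 0.05, 1 of the 4 passed (37% of all genes did), and with DESeq2 and limma-voom 0 of the 4 did after adjustment.

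SEC24D rose the most of the 32 genes. It encodes a cargo-binding subunit of COPII, the coat of vesicles that leave the ER. SEC24D had 48.7 and 46.7 CPM in DMSO and 60.9 and 58.5 CPM after BAY1217389 (log2 fold change 0.32, SE 0.05, edgeR adjusted p = 4.1e-06). This is 25.2% higher, the groups did not overlap, and the call held in all 11 alternatives against no change. SEC31A, which forms the outer cage of the coat, had 143 and 148 CPM against 152 and 149.9 CPM and did not pass (0.05, SE 0.04, edgeR adjusted p = 0.288).

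Ratios of reads within a library, in which depth cancels, show how partner genes moved against each other. The pairs were chosen after the fold changes were known, and the values are descriptions. The ratio of ERO1A to ERO1B reads was 2.62 and 2.67 with DMSO and 3.21 and 3.51 with BAY1217389. SEC24D to SEC31A went from 0.339 and 0.316 to 0.400 and 0.390, and DERL2 to DERL1 from 0.168 and 0.159 to 0.175 and 0.182. The ratio of ATF6 to ERN1 fell from 2.13 and 2.13 to 1.75 and 1.60. In all 4 pairs the groups did not overlap, which a choice made with the fold changes known favours. For single genes this held for 61% of all genes tested, and other pairs were not examined. An exact two-sided permutation test of 2 against 2 libraries cannot go below p = 0.333. It gave that value for each pair, so it decides nothing here.

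**Figure D4:**
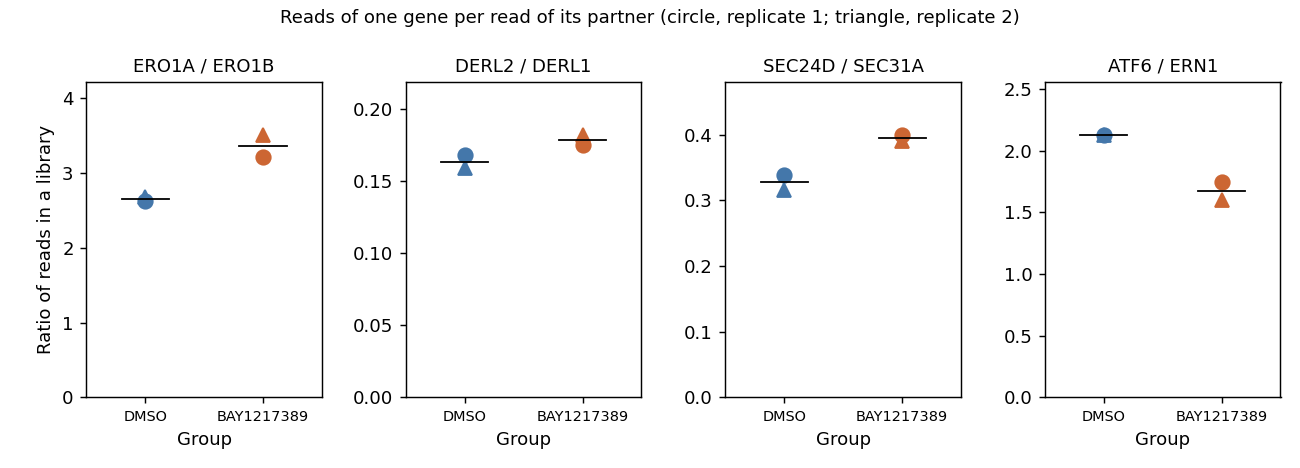
Reads of the first gene per read of the second in each of the 4 libraries (circle, replicate 1; triangle, replicate 2) with the group mean as a line, on axes that start at 0. The ratio of ERO1A to ERO1B rose from a mean of 2.64 to 3.36 and that of ATF6 to ERN1 fell from 2.13 to 1.67.

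Related genes outside the 33 were taken from 5 lists written from textbook knowledge. The lists, like the 33 genes, were chosen with earlier results of these data known. They overlap, as 3 genes stand in 2 lists each and count in both. Their counts stand beside 14.5% higher and 13.3% lower over all tested genes, and 17.5% and 22.6% among those at or above the median DMSO level. Of 19 tested genes in the list of sensors and stress regulators, 7 were higher (36.8%) and 3 lower (15.8%), with a median log2 fold change of 0.09. This list also holds the chaperone genes HSPA5 (0.08) and HSP90B1 (0.09), both higher. PPP1R15A, which encodes GADD34, the subunit that reverses eIF2 alpha phosphorylation, rose from 109 ± 0.328 to 164 ± 1.68 CPM (0.59, SE 0.04, edgeR adjusted p = 1.4e-15). Its constitutive relative PPP1R15B (0.23) and DDIT3, which encodes the stress factor CHOP (0.20), were higher, and the pseudokinase gene TRIB3 (-0.17) was lower. Of 32 luminal folding and oxidation genes, which again include HSPA5 and HSP90B1, 11 were higher (34.4%) and 2 lower (6.25%), with a median of 0.06. The rises in these lists are thus in part those of the same genes. CALR rose from 317 ± 2.63 to 405 ± 6.48 CPM, and PDIA3 (0.19), another disulfide isomerase, and SELENOM (0.44) were higher, while TMX3, a membrane-bound isomerase, was lower (-0.23).

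The other 3 lists had medians nearer 0. Of 30 ERAD genes, 3 were higher (10%) and 7 lower (23.3%), with a median of -0.05. STT3B (0.09), 1 of the higher genes, was also counted in the list of translocation, signal peptide cleavage and glycosylation. Over all tested genes the shares were 14.5% and 13.3%, and at or above the median DMSO level 17.5% and 22.6%. The ligase gene MARCHF6 (-0.17) and the erlin genes ERLIN1 (-0.18) and ERLIN2 (-0.24), which act on sterol-regulated substrates, were lower, and the selenoprotein gene SELENOK was higher (0.31). The ERLIN1 call was lost without BAY1217389 replicate 1 (log2 fold change -0.15, edgeR adjusted p = 0.0521, range over alternatives 0.00275 to 1). Of 44 genes of translocation, signal peptide cleavage and glycosylation, 8 were higher (18.2%) and 7 lower (15.9%), near the shares over all genes. Their median was -0.02. SEC11A, a signal peptidase catalytic subunit (-0.32), and GET1 (-0.49) and CAMLG (-0.29), the receptor pair for tail-anchored proteins, were lower. EMC7, a subunit of the membrane insertase EMC, was higher (0.31).

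Of 32 genes of the COPII coat and ER exit, 6 were higher (18.8%) and 2 lower (6.25%), with a median of 0.02. Over all tested genes the shares were 14.5% and 13.3%. SAR1A, the GTPase that starts coat assembly, rose from 108 ± 2.67 to 161 ± 1.77 CPM (log2 fold change 0.58, SE 0.04, edgeR adjusted p = 4.63e-15). The exit site gene TFG (0.21) and the cargo lectin gene LMAN2 (0.16) were higher, and MIA2, a cargo receptor gene, was lower (-0.25). Tested against a fold change of 1.2, PPP1R15A, CALR and SAR1A were higher and GET1 was lower. These were the 4 that passed of the 20 genes named in the lists by smallest p.

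**Figure D5:**
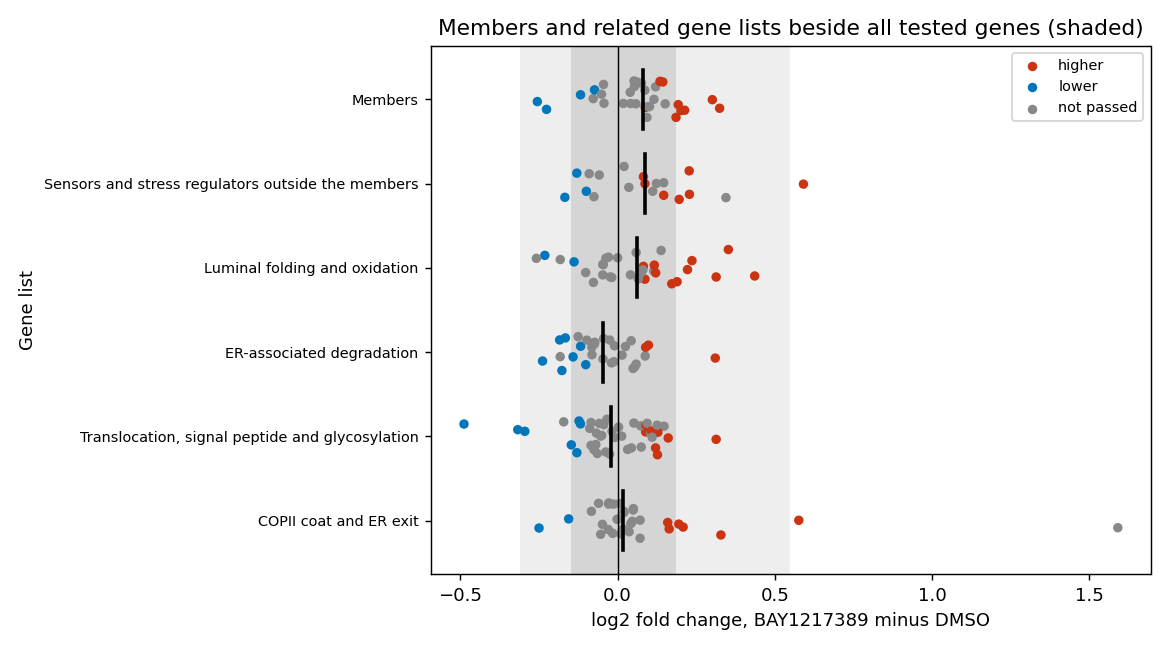
Log2 fold change (BAY1217389 minus DMSO) of each tested gene among the 33 and in 5 related lists (points, coloured by the edgeR call), with each list's median as a bar and, over all 16738 genes, the median as a line and the middle 50 and 80% as dark and light shading. Medians lie between -0.05 and 0.09, and the far point at 1.59 is SEC16B, which did not pass.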

How the data were processed

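Deposited values are the authors' unnormalized read counts for each gene, per the file headers. The submitters' processing notes name hg18; aligner, counter and strand setting: not given in the sources used here. Gene rows carry RefSeq identifiers later than that build, and which annotation was counted is uncertain. Overlapping genes may therefore share reads. Libraries were made with a stranded poly(A) kit, per the labels' protocols. The workbooks' 4 further columns (16 with repeats) match no sample and were not used. For the tests, edgeR 4.0.16 was run in R 4.3.3: filterByExpr (minimum count 10) kept 16738 of 46427 rows, TMM factors lay between 0.994 and 1.01, and the treatment effect was tested two-sided by quasi-likelihood, with Benjamini-Hochberg adjustment over all genes and a threshold of 0.05. It had 2 residual and 31.1 prior degrees of freedom. CPM use the TMM-scaled library size. Fold changes are log2, BAY1217389 minus DMSO, with 95% intervals from the fit. Replicates differed by more than sampling noise (chi-square per degree of freedom 3.74 for DMSO, 3.93 for BAY1217389). A count of 0 allows 3 reads, which covers counting error only. Alternatives were no or upper-quartile scaling, DESeq2 1.42.0, limma-voom (limma 3.58.1), no filter, a stricter filter (at least 5 CPM in at least 2 libraries), a replicate block, a test against a fold change of 1.2 and leaving out each library. The fits were tested on simulated data.

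The members and lists were chosen with earlier results of these data known. Values per library are given for called members, the sensors, SEC61 subunits and HERPUD1, and also for the uncalled members ERO1A, SSR1 and SEC31A. For each list up to 4 genes with the smallest p are named. HSPA5, HSP90B1, CANX, EIF2A, TRIM5, SEC16B and STT3B were named after their values were seen. Protein sequences were not used here. Motifs were searched in RefSeq promoters (GRCh38.p14), a build other than the one named for the counts.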

Additional observations from a re-analysis of the deposited data

How the results depend on the processing

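Of the 13 called members, ATF6, OS9, PDIA4, PDIA6, ERP44 and SEC24D passed in every alternative except the test against a fold change of 1.2, which 0 members passed. Sign turned under some alternative for 6 members, none of them called. Members higher and lower were 9 and 4 with the replicate block (median 0.0816), with limma-voom and under both other scalings. The replicate numbers are shared by label only, and deviations of same-numbered libraries correlated at 0.044 over all genes and at 0.290 over the 32 tested members. With 2 pairs and no shared source named in the labels, the numbers were not taken as pairs. Block counts over all genes were 2466 higher and 2326 lower.

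With DESeq2, 1620 of all genes were higher and 1400 lower, and 6 members were higher and 1 lower. Among the members, 1 disposal gene was higher and 0 lower, and 0 folding genes were lower. In the lists, 1 stress regulator, 2 luminal folding genes, 3 ERAD genes, 6 translocation genes and 1 COPII gene were lower. The 1.2-fold test called 891 genes higher and 303 lower, every role group had 0 either way, and the lists had 1 higher and 0 lower (stress regulators, luminal folding, COPII), 0 and 0 (ERAD) or 0 and 1 (translocation). Without scaling factors, medians were 0.0700 for members, -0.0567 for ERAD, -0.0331 for translocation and 0.00733 for COPII lists, and with upper-quartile factors -0.0537, -0.0301 and 0.0104 for the last 3. The stricter filter, which centres on fewer genes, gave medians of 0.0987 for members, 0.0833 for luminal folding, -0.0280 for ERAD, -0.00432 for translocation and 0.0374 for COPII lists. It called 13 members higher and 3 lower, with 1 sensor and 1 translocation member among the higher and 1 disposal member among the lower. In the lists, 2 stress regulators, 2 luminal folding, 4 ERAD, 8 translocation and 2 COPII genes were lower. Without a filter, 3 members were lower, 1 of them a disposal gene. In the lists, 2 stress regulators, 2 luminal folding, 4 ERAD (median -0.0416), 7 translocation and 2 COPII genes were lower. The cause of these shifts was not tested.

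Leaving out each library in turn, members higher ranged from 6 (without DMSO replicate 1) to 11 (without BAY1217389 replicate 2), members lower from 2 to 3 and the members' median from 0.0704 to 0.0804. Disposal genes lower ranged from 0 to 1, folding genes higher from 3 to 5 and lower from 0 to 1, and translocation members higher from 0 to 1. In the lists, stress regulators lower ranged from 1 to 3 (median 0.0422 to 0.117), luminal folding genes higher from 6 to 10 and lower from 1 to 2 (0.0361 to 0.0868), ERAD genes higher from 1 to 4 and lower from 3 to 5 (-0.0587 to -0.0413), translocation genes higher from 2 to 8 (-0.0232 to -0.00234) and COPII genes lower from 1 to 2 (0.00565 to 0.0308).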
